A study of Mus musculus with 6 samples.

Results

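The cells described here are 92 of 32762 filtered barcodes from c-Kit-enriched bone marrow. They were chosen by their own counts of unique molecular identifiers (UMIs, each marking 1 captured RNA molecule): at least 2 UMIs of Cd79a, at least 1 UMI of Ighm or Ms4a1, and no UMI of Vpreb1, Igll1, Rag1 or Dntt. Pools 1, 2 and 3 gave 25, 24 and 43 of them, which was 0.224% of the barcodes of pool 1 (exact 95% binomial interval 0.145% to 0.330%), 0.2502% of pool 2 (0.160% to 0.372%) and 0.359% of pool 3 (0.260% to 0.483%). The intervals cover counting error only. The working name of the set was immature and mature B cells, and the data went against that name: 82 of the 92 cells carried the transcripts of antibody secretion and none of Pax5, while Ms4a1, a gene of the rule, was in 32 of these 82. They are called here the cells of the Cd79a rule, split into immunoglobulin-rich and immunoglobulin-poor cells.

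The series asked how brequinar (BRQ), an inhibitor of the pyrimidine synthesis enzyme DHODH, alters progenitors in the marrow of mice that carry 4T1 mammary tumors. Bone marrow of BALB/c mice aged 10 weeks was enriched for c-Kit+ cells with magnetic beads, and each of 3 pools held 1 non-tumor-bearing (NTB) mouse without treatment, 1 4T1-bearing mouse given DPBS vehicle daily and 1 4T1-bearing mouse given brequinar at 10 mg/kg daily. Both treatments were injected intraperitoneally for 2 weeks from the first measurable tumor. All 3 groups shared the strain, the enrichment and the 10x Genomics 3' chemistry, and 4T1 is a mouse mammary carcinoma line implanted in the mammary gland.

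Each mouse was marked with 1 antibody that carries a DNA barcode (hashtag). The 3 barcode sequences below are the means by which any cell was given to a group, since a pool was 1 library.
NTB, tag 0301: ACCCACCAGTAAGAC
vehicle, tag 0302: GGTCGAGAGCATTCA
BRQ, tag 0303: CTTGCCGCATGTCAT

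B cells arise in the marrow, where pre-B cells first pair a heavy chain with a surrogate light chain made from Vpreb1 and Igll1, and where Rag1 cuts the immunoglobulin loci. Immature B cells then show surface IgM with the signalling chains Cd79a and Cd79b, and mature B cells add Ighd, Ms4a1 (CD20) and class II molecules. After activation a B cell can turn into an antibody-secreting cell, in which Prdm1 and Irf4 shut off Pax5, Xbp1 enlarges the secretory apparatus, and the J chain (Jchain) joins IgM or IgA into polymers.

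The pools held 128035770, 100700982 and 135564079 gene UMIs, and the cells of the rule had a median of 10884 UMIs (range 1162 to 34182) against 9478 in other cells. Across pools 127 barcodes occurred more than once. Of the 92 cells, 2 had a barcode that was also in another pool, and 0 barcodes met the rule in 2 pools. Scrublet, a doublet caller, marked 1 of the 92 cells and 4.54% of all filtered barcodes.

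Of the 4 marker genes of the working name, Cd79a was detected in all 92 cells by the rule itself. Ighm was detected in 87 cells, Cd79b in 79 and Ms4a1 in 39. The rule was met through Ighm alone by 53 cells, through Ms4a1 alone by 5 and through both by 34. In other cells of these pools, most of which should lack the genes, 27.3% had an Ighm UMI and 14.9% a Cd79b UMI, while 0.0216% had an Ms4a1 UMI. A single Ighm UMI was thus not particular to the cells of the rule.

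At the limit of the rule, 24 cells had exactly 2 Cd79a UMIs, and 21 of these were immunoglobulin-rich. Just outside it, 59 cells had exactly 1 Cd79a UMI and otherwise passed, and 19 of these were immunoglobulin-rich. The median immunoglobulin share was 53.9% of UMIs in the former and 0.0386% in the latter.

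The share of a cell's UMIs that came from immunoglobulin constant genes and Jchain fell into separate ranges (plot of immunoglobulin share against depth). In 82 cells it lay between 17.5% and 68.8%, with a median of 54.1%. In 10 cells it lay between 0.175% and 2.58%, with a median of 1.26%. None of the 92 cells lay between these ranges, and a limit of 10%, set after seeing the values, divides them. Pools 1, 2 and 3 held 21, 22 and 39 immunoglobulin-rich cells, with median shares of 56.9%, 57.2% and 52.99%, and 4, 2 and 4 immunoglobulin-poor cells.

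**Figure D1:**
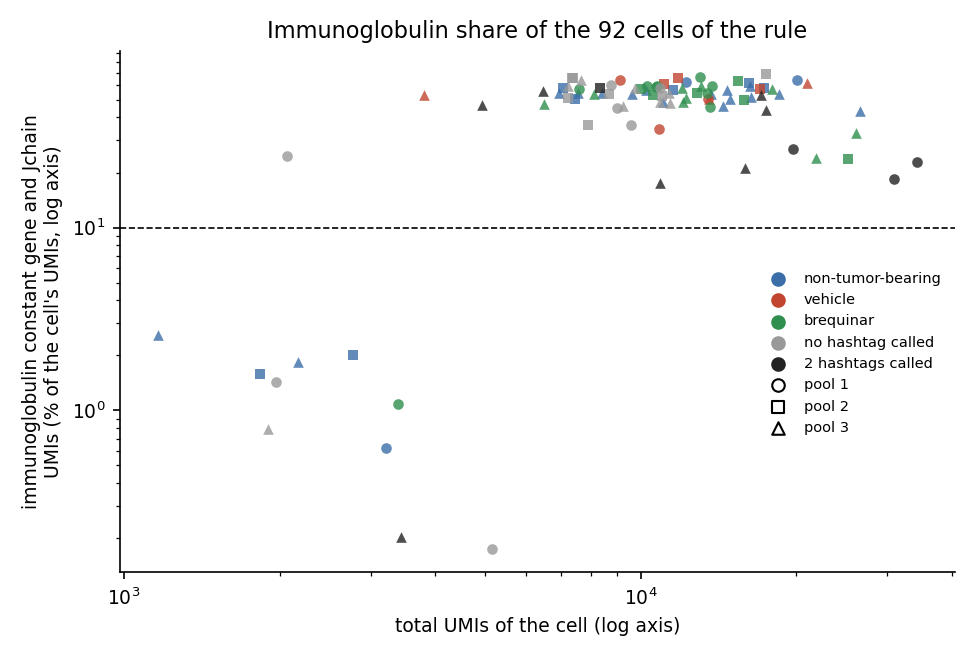
Each point is 1 of the 92 cells of the rule, with its total UMIs on the horizontal log axis and its immunoglobulin constant gene and Jchain UMIs as a percent of all UMIs on the vertical log axis. Color gives the hashtag call, shape the pool, and the dashed line the 10% limit, above which 82 cells lie and below which 10 lie.

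The immunoglobulin-rich cells carried the whole list of plasma cell genes. All 10 genes of that list had a UMI in over 50% of the 82 cells, and all 10 were above the other cells in each of the 3 pools. Of the 8143 genes at 10 CPM (defined below) or more in the mean of both kinds of cell, 25.8% were higher in all 3 pools and 33.5% lower. Jchain, 1 of the 10, is part of the immunoglobulin share that set the cells apart, so its values are not independent of that choice. These cells were selected on genes of the same cells, so the contrast is a description. Levels below are counts per cell group scaled to 1000000 UMIs (CPM), taken over all UMIs for immunoglobulin genes and Jchain and over UMIs outside the immunoglobulin loci for every other gene. Jchain, at 31847 CPM, and Xbp1, at 2550 CPM, were detected in 82 of 82 cells. Mzb1, a chaperone partner of immunoglobulin assembly, was in 81, Derl3, of the pathway that clears misfolded proteins from the endoplasmic reticulum, in 74, and Sdc1 (CD138) in 69. Tnfrsf17 (BCMA), the receptor through which such cells receive survival signals, was in 57 cells, Irf4 in 56, Slamf7 in 54, and Prdm1 (Blimp-1) and Fkbp11 in 47 each.

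Detection was also compared at equal depth outside the immunoglobulin genes. Immunoglobulin and Jchain UMIs were taken out and each cell was then thinned to 1000 UMIs, a setting added after the values were seen. The cells with an early gene, here and below, met the limits for Cd79a and for Ighm or Ms4a1 but held a UMI of Vpreb1, Igll1, Rag1 or Dntt. Early B cells without an Ighm or Ms4a1 UMI are thus not among them. There were 165 such cells, of which 164 had enough UMIs. Xbp1 was then detected in 90.2% of immunoglobulin-rich cells, in 8.54% of the 164 cells with an early gene, and in 11.5% of other cells. For Sdc1 the values were 32.9%, 1.22% and 0.143%, and for Mzb1 89.0%, 54.3% and 0.245%. Of the cells with an early gene 3 were themselves immunoglobulin-rich, with 27, 651 and 304 Jchain UMIs and 1, 2 and 1 Sdc1 UMIs. Those 3 cells add to the plasma cell gene values of that group. With the immunoglobulin UMIs left in, where they fill much of the 1000 UMIs of an immunoglobulin-rich cell, Xbp1 was at 64.6%, 7.32% and 10.7%.

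**Figure D2:**
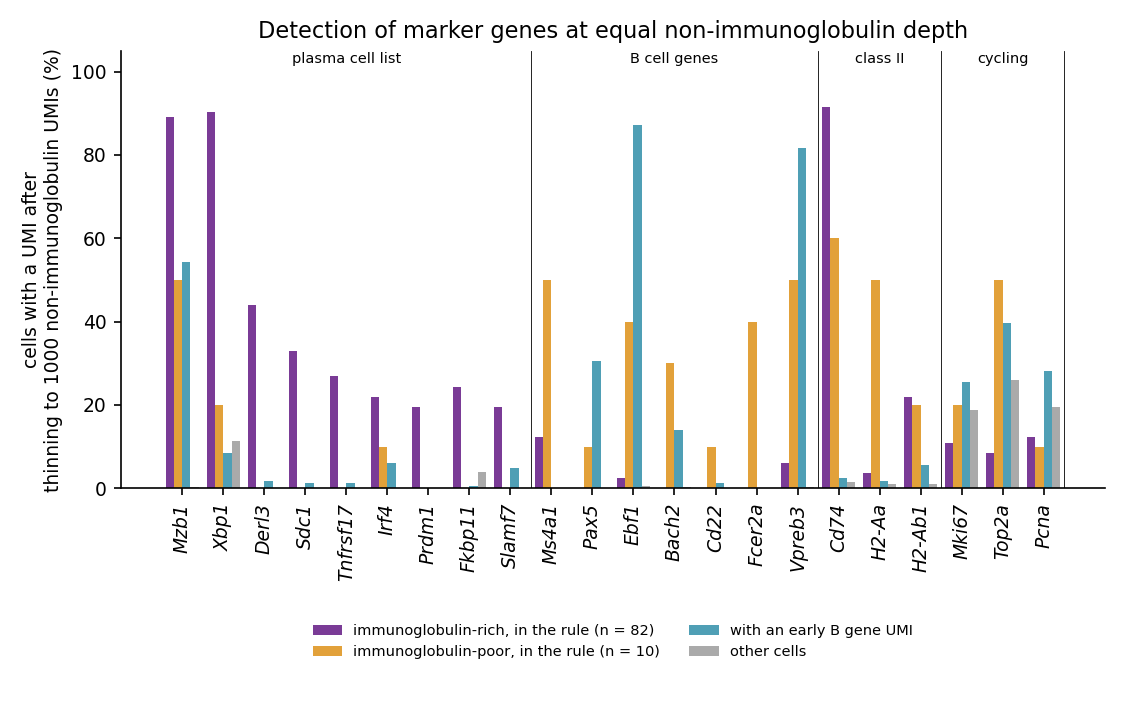
Bars give the percent of cells with a UMI of each gene after immunoglobulin and Jchain UMIs were taken out and every cell was thinned to 1000 UMIs, for immunoglobulin-rich cells and immunoglobulin-poor cells of the rule, cells with an early B cell gene, and other cells. The 9 plasma cell genes other than Jchain were highest in the immunoglobulin-rich cells, while Pax5, Bach2, Cd22 and Fcer2a had no UMI in them.

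Several genes that define B cells before secretion were at or near 0 in the same 82 cells, while Ms4a1 was in 32 of them, Cd37 in 47 and Blnk in 36. Pax5, the factor that holds B cell identity, and Bach2, which opposes Prdm1, had 0 UMIs. Cd22, Cd72, Blk, Spib, Fcer2a (CD23), Cxcr5 and Ccr7 were at 0 as well. Ighd had 1 UMI in 1 cell, and Ebf1 was in 10 cells at up to 4 UMIs. A count of 0 of 82 cells allows a share of cells with a UMI of up to 3.66%. In the cells with an early gene Pax5 was in 122 of 165.

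Of the 15 genes listed for immature and transitional B cells, 0 were higher and 12 lower in immunoglobulin-rich cells than in the cells with an early gene in all 3 pools. Over the 8457 genes at 10 CPM or more in the mean of both, 19.2% and 37.5% moved so. The rule split these groups by early B cell genes, so lower values of genes that go with those are in part built in. The count is a description. Vpreb3, a pre-B and immature B cell protein, stood at 68.5 CPM against 1499. Il7r, Lef1, Akap12 and Rag2 were at 0 in the immunoglobulin-rich cells. Of the 20 genes listed for mature follicular B cells, 2 were higher and 8 lower. Bcl2 was one of the former, at 177 against 36.6 CPM, and Tnfrsf13c, the BAFF receptor, the other, at 85.6 against 11.7.

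Receptors and survival genes differed within their families. Tnfrsf13b (TACI) was detected in 70 of 82 cells, Tnfrsf17 in 57 and Tnfrsf13c in 36. Mcl1, a survival factor, stood at 767 CPM, against 144 in cells with an early gene and 111 in other cells. Of the 16 survival genes, 8 were higher and 2 lower than in cells with an early gene in all 3 pools, beside 19.2% and 37.5% of all genes in that contrast. Cxcr4, the receptor for the marrow chemokine CXCL12, was in 34 cells at 85.6 CPM, close to the 82.1 CPM of other cells.

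Other lists held genes on both sides of the cells with an early gene. Of 34 genes of B cell receptor signalling 12 were higher and 13 lower in immunoglobulin-rich cells in all 3 pools. For this and the next 5 lists, the shares over all genes were again 19.2% higher and 37.5% lower, and several of the counts lie near them. Rasgrp3, which activates RAS downstream of the receptor, stood at 316 against 4.997 CPM, while Blnk, the adaptor that links SYK to its targets, stood at 103 against 250. Of 20 B lineage transcription factors 7 were higher and 11 lower, with Irf4 at 268 against 46.6 CPM and Ikzf3 (Aiolos) at 160 against 11.7. Early activation genes gave 5 higher and 4 lower of 14, homing genes 3 and 3 of 14, interferon-stimulated genes 3 and 1 of 15, and p53 targets 5 and 3 of 20. Among the last, Trp53inp1 stood at 788 against 140 CPM and Btg2 at 323 against 71.6.

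Class II genes were split. Cd74, the invariant chain, was in 81 immunoglobulin-rich cells at 4481 CPM, and H2-Ab1 was in 51 cells at 202. H2-Aa was in 17 cells at 59.0 CPM, and Ciita, the activator of the class II genes, had no UMI. Bhlhe41, a factor known from B-1 cells, was in 42 of 82 cells at 139 CPM, against 1.67 in cells with an early gene, while Cd5 had 0 UMIs in the 82 cells. The list for marginal zone and B-1 cells held 16 genes. Against cells with an early gene 4 were higher and 1 lower in all 3 pools, beside 19.2% and 37.5% of all genes. Against other cells 3 were higher and 6 lower, beside 25.8% and 33.5%.

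Cycling genes were low. Of the 16 proliferation genes 0 were higher and 15 lower in immunoglobulin-rich cells than in other cells in all 3 pools, beside 25.8% and 33.5% of all such genes. Mki67 stood at 135 CPM against 282 in other cells, and Top2a at 135 against 408. A further list held 17 genes of pyrimidine synthesis, which brequinar blocks, and of salvage, which it does not block. Of these, 2 (Cmpk1 and Uckl1) were higher and 10 lower than in other cells in all 3 pools, beside the same 25.8% and 33.5%. Dhodh, the target of brequinar, had a UMI in 6 of 82 cells, at 11.4 CPM against 10.3, which is too few to compare groups.

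The 20 genes with the largest ratio of CPM between the cells of the rule and all other filtered cells, among those at 200 CPM or more in each pool (here over all UMIs for every gene), held 9 immunoglobulin genes, Jchain, and Gm30211, a noncoding RNA gene that overlaps Igkc. Igkc led in level with a mean over pools of 304990 CPM, followed by Ighm at 117132, Jchain at 32299. Iglc2 stood at 2159, 22248 and 4559 CPM in pools 1, 2 and 3, where 1 cell of pool 2 held 5316 of the 5988 UMIs of its pool, and without that cell its mean fell from 9655 to 3129 CPM. By ratio Iglc1 was first at 4194 against 3.22 CPM, but its level was 1301, 1966 and 9314 CPM in pools 1, 2 and 3. In pool 3, 1 cell that was led by Iglc1 held 3754 of the 4713 Iglc1 UMIs, and without that cell the mean of Iglc1 fell to 1749 CPM. The other filtered cells of this list include the 61 immunoglobulin-rich cells outside the rule described further on. Without those, a comparison added after the values were seen, the same 20 genes led in another order, with Ighv7-1 first at 521 against 0.0144 CPM, Iglc1 at 4194 against 0.645 and Igkc at 304990 against 40.6. The other 9 were Ly6d, Pou2af1, Mzb1, Chst1, Derl3, Cd79a, Tent5c, Cd74 and Ctss, all outside the immunoglobulin loci. Tent5c, a poly(A) polymerase of secreted protein messages, was in 75 immunoglobulin-rich and 0 immunoglobulin-poor cells. In GRCm38 (mm10), Igkc lies on chromosome 6 at 70726435 to 70726966, Ighm on chromosome 12 at 113418558 to 113422730, and Jchain on chromosome 5 at 88519809 to 88527891.

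Pou2af1, the octamer coactivator of B lineage cells, was detected in 80 of 82 immunoglobulin-rich cells at 589 CPM of all UMIs over the cells of the rule, against 1.72 CPM in all other filtered cells and 0.884 CPM without the 61. Its promoter is printed because it was 1 of 8 leading genes with a RefSeq promoter window (250 bases before to 50 after the start) and the only 1 to hold TGACGTGG, letters of the unfolded protein response element that XBP1 is known to bind. On either strand these letters were in 0.676% of all 32851 windows. The match is a description, and the letters were picked with some of the windows in view. The window is chr9:51213440-51213739, plus strand, GRCm38.p6, with the match in capitals at position -61 from the start.
Pou2af1 promoter: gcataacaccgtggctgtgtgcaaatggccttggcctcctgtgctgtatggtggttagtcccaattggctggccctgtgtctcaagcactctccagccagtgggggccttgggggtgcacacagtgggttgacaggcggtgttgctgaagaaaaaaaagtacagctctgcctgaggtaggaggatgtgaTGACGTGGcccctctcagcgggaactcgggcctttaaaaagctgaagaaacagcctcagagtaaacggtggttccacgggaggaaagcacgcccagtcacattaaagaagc

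B cell genes were found in most of the 10 immunoglobulin-poor cells. Ms4a1, a gene of the rule, was in 7 of them, Ebf1 in 7, Fcer2a and H2-Aa in 5 each and Pax5 in 4, while Jchain had 1 UMI in 1 cell and Sdc1, Prdm1, Tnfrsf17 and Derl3 had 0. Ighd was in 2 cells, at 1 and 2 UMIs. A count of 0 of 10 cells allows a share of up to 30.0%, so absence cannot be read from this number of cells.

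These 10 cells were also uneven among themselves. They were shallow, with a median of 2478 UMIs against 11379 in the immunoglobulin-rich cells. A BRQ cell of pool 1 had 33 Ebf1 and 18 Mki67 UMIs. A pair of NTB cells of pool 2 had 13 and 18 H2-Aa UMIs. In 2 others the neutrophil and granulocyte-monocyte progenitor markers reached 233 and 908 UMIs, and these had 0 UMIs of Pax5 and Ebf1. Of the 10, 5 were NTB singlets, 1 was a BRQ singlet, 0 were vehicle singlets, and 4 had no single hashtag.

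Markers of other lineages were checked in the 82 immunoglobulin-rich cells. All 11 markers of neutrophils and granulocyte-monocyte progenitors had UMIs, and all 11 were lower than in other cells in every pool. Summed over the cells, the 6 neutrophil markers came to 29988 CPM against 74363 in other cells. A cell held between 6 and 5071 UMIs of the 11 markers, with a median of 20, against a median of 611 in other cells. In 11 cells the sum was 100 or more. Those 11 cells had a median immunoglobulin share of 24.1% (17.5% to 43.8%) and 6 of them carried 2 hashtags, whereas the other 71 had a median of 54.6% (24.6% to 68.8%) and 4 of them carried 2 hashtags. The part of joined cells in these values was not tested.

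Erythroid, megakaryocyte, T and NK markers were sparse, with Hbb-bs, Trbc2, Ncr1 and Itga2b at 0. Genes usually listed for other lineages that were high were Ly6c2, in 77 of 82 cells at 1755 CPM against 158 in other cells, Prg2, in 52 cells at 617 against 20.8, and Ly6a (Sca-1), in 46 cells at 333 against 0.919. Most of their lists did not follow. Of 6 monocyte and macrophage genes 1 was higher and 4 lower than in other cells in all 3 pools. The 5 basophil, mast and eosinophil genes gave 1 and 4, and the 3 stem and progenitor genes 1 and 1, beside 25.8% and 33.5% of all genes. Kit, whose protein the beads selected, had a UMI in 22 of 82 cells at a median depth of 11379 UMIs and in 39.7% of other cells at a median depth of 9478. These depths count all UMIs, and a median of 54.1% of those in the 82 cells were immunoglobulin or Jchain. In CPM over UMIs outside the immunoglobulin loci Kit stood at 76.1 against 77.0.

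In each immunoglobulin-rich cell 1 heavy chain class held nearly all heavy chain UMIs (plot of the leading heavy chain). Ighm, for IgM, led in 70 of 82 cells (85.4%, 75.8% to 92.2%), with a median of 1786 UMIs. The lowest of these, a BRQ cell of pool 3, had only 25 heavy chain UMIs beside 9744 of Igkc. Igha, for IgA, led in 6, and Ighg1, Ighg2b and Ighg3, for IgG classes, in 2 each. The leading gene held at least 98.55% of the heavy chain constant UMIs in every cell. Because the rule asks for a UMI of Ighm or Ms4a1, it favors IgM cells, and the 12 cells of other classes passed by at most 14 Ighm UMIs or 1 Ms4a1 UMI.

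**Figure D3:**
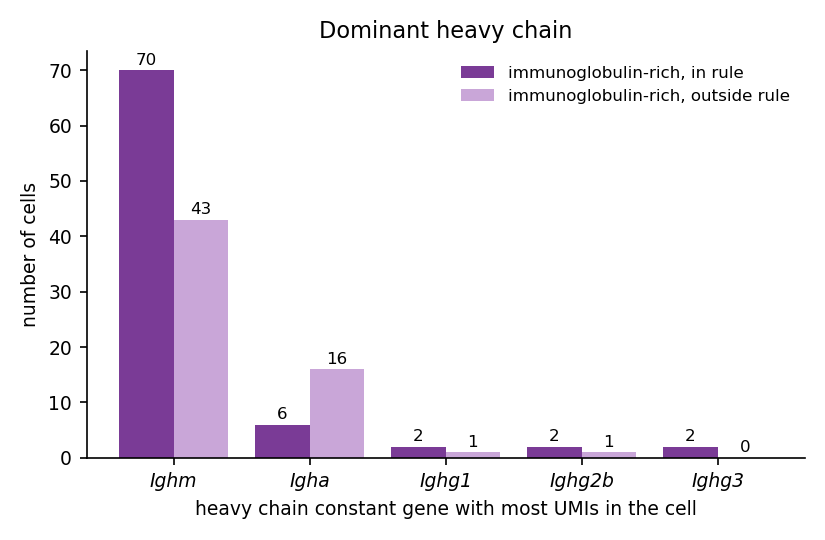
Bars give the number of immunoglobulin-rich cells by the heavy chain constant gene with the most UMIs, for the 82 cells in the rule and the 61 outside it. Ighm led in 70 and 43 cells, and Igha in 6 and 16.

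Light chains were nearly all kappa. Igkc led in 79 of 82 cells, Iglc2 in 2 and Iglc1 in 1. Yet a UMI of Iglc2 was found in all 82 cells and of Iglc1 in 68. Iglc2 and Iglc3 are near-identical copies of each other, so counts between these 2 are uncertain. The median of Jchain was 587 UMIs in the 6 Igha cells (338 to 942), 381 in the 70 Ighm cells (1 to 1789), and 196, 146 and 112 in the Ighg1, Ighg2b and Ighg3 pairs. These ranges overlap, and the difference between classes was not tested.

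Variable (V) genes were read as a further mark of each cell. The files list 185 Ighv, 160 Igkv and 3 Iglv genes of the reference mouse strain, which is not BALB/c, so a named V gene may stand for a related BALB/c gene. A V gene was called where it had at least 3 UMIs and at least 3 times the second. By this measure 61 of 82 immunoglobulin-rich cells had a heavy chain V gene and 72 a kappa V gene, and 56 had both. There were 24 distinct heavy chain V genes, 15 of them in 1 cell each, and 30 distinct kappa V genes.

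Ighv7-1 was called in 25 of the 61 cells. It was found in all 3 pools and in 9 of 9 mice, with 4 NTB, 3 vehicle and 8 BRQ singlets, at 5 to 43 UMIs (median 17), and it had 0 UMIs in each of the 36 cells with another call. The next, Ighv7-3, was called in 4. Of the Ighv7-1 cells, 22 were led by Ighm. Outside the rule, Ighv7-1 was called in 15 of 33 immunoglobulin-rich cells with a call.

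**Figure D4:**
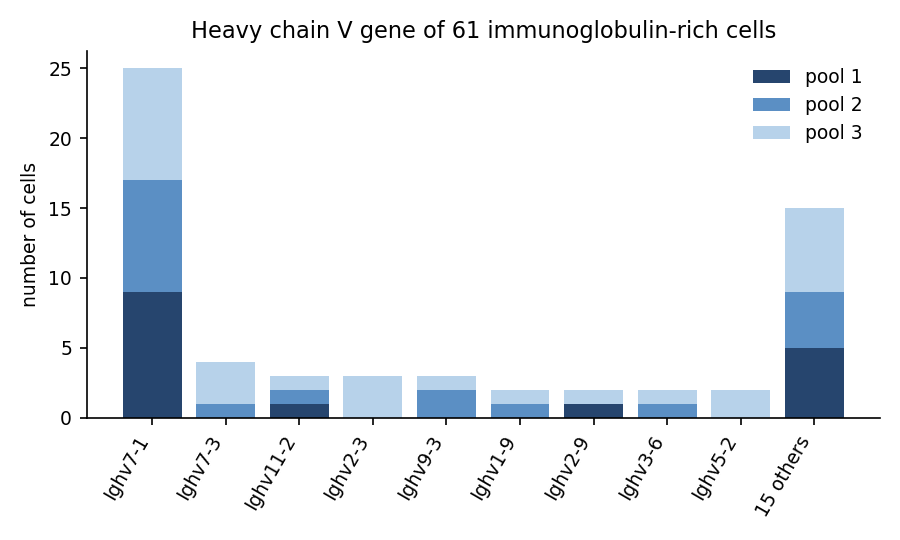
Stacked bars give the number of immunoglobulin-rich cells of the rule by called heavy chain V gene and pool, for genes called in 2 or more cells, with the 15 genes called in 1 cell each joined in the last bar. Ighv7-1, with 25 of 61 cells, stands above every other gene in the 3 pools together.

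Heavy and kappa calls went together in part. Of the 25 Ighv7-1 cells, 17 had 3 or more UMIs of Igkv15-103, against 1 of the 36 cells with another heavy chain call. The pair of Ighv7-1 and Igkv15-103 was called in 16 cells over 3 pools, all led by Ighm. Ighv7-1 was also called with Igkv4-53 in 4 cells and with Igkv7-33 in 3, and Ighv11-2 with Igkv14-126 in 3 cells, 1 in each pool. Iglv1 was detected in 70 of the 79 kappa cells at a median of 6 UMIs, so V gene UMIs alone do not give the light chain. No junction sequence was read, and cells that share V genes were not shown to be of 1 clone.

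Hashtags gave 59 of the 92 cells to 1 mouse (64.1%, 53.5% to 73.9%), while 11 carried 2 hashtags and 22 none. Among all other cells 48.8% were singlets (48.2% to 49.3%), 11.1% carried 2 and 40.1% none. The mice held few cells each. NTB mice of pools 1, 2 and 3 had 3, 7 and 16 cells of the rule among 554, 1307 and 2444 singlets, vehicle mice 3, 3 and 3 among 2780, 382 and 1232, and BRQ mice 9, 6 and 9 among 2571, 2321 and 2405.

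As a percent of each mouse's singlets, the cells of the rule were 0.542%, 0.536% and 0.655% in NTB mice, with a mean of 0.577% ± 0.0671 (SD, n = 3). In vehicle mice they were 0.108%, 0.785% and 0.244%, with a mean of 0.379% ± 0.358. In BRQ mice they were 0.350%, 0.259% and 0.374%, with a mean of 0.328% ± 0.0610. The NTB values lay above all 3 BRQ values, and the vehicle values spanned both. The vehicle value of 0.785% rests on 3 cells of 382, with an exact interval of 0.162% to 2.28%.

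None of the 3 comparisons passed a two-sided exact permutation test, which with 3 mice against 3 cannot go below 0.1. BRQ against NTB gave a difference in mean of -0.2497 percentage points (exact p = 0.1, adjusted over 3 comparisons 0.3). Vehicle against NTB gave a difference of -0.198 points (exact p = 0.4, adjusted 0.6) and BRQ against vehicle one of -0.0513 points (exact p = 1, adjusted 1). Without the vehicle mouse of pool 2 the last difference turned to 0.152. Of the 6 immunoglobulin-poor cells with a single hashtag 5 were NTB, and with only the immunoglobulin-rich cells of the rule, a count added after the values were seen, the NTB mice stood at 0.361%, 0.383% and 0.573% and the BRQ mice at 0.311%, 0.259% and 0.374%, so that the groups overlapped. The difference of BRQ from NTB was then -0.124 points (exact p = 0.2) and that of vehicle from NTB -0.0599 (exact p = 0.8). A share cannot tell fewer of these cells from more of the others, and the comparisons share groups.

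The rule missed 61 further immunoglobulin-rich cells, and these were not spread evenly over the groups. Of them, 24 had no Cd79a UMI, 19 had 1, 16 had neither Ighm nor Ms4a1, and 3 had an early B cell gene. These last 3 are also among the cells with an early gene used above. For 9 of the 10 plasma cell genes, at least 50% of the 58 cells without an early gene had a UMI. Igha led in 16 of the 61, against 6 of the 82 in the rule. NTB mice of pools 1, 2 and 3 held 6, 12 and 12 of the missed cells, vehicle mice 1, 0 and 1, and BRQ mice 1, 3 and 2.

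Counting all 143 immunoglobulin-rich cells, whether or not in the rule, the mean percent of singlets was 1.27% ± 0.192 in NTB, 0.418% ± 0.331 in vehicle and 0.398% ± 0.0544 in BRQ mice (SD, n = 3 each). Every NTB mouse lay above every tumor-bearing mouse (plot of shares by mouse). The difference in mean from NTB was -0.852 percentage points for vehicle and -0.871 for BRQ, each with an exact permutation p = 0.1, the smallest possible, and an adjusted p of 0.15. BRQ and vehicle differed by -0.0196 points (exact p = 1). This count was added after the values were seen. With the limits read as UMIs the differences from NTB were -0.257 for vehicle and -0.281 for BRQ (exact p = 0.7 and 0.5).

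**Figure D5:**
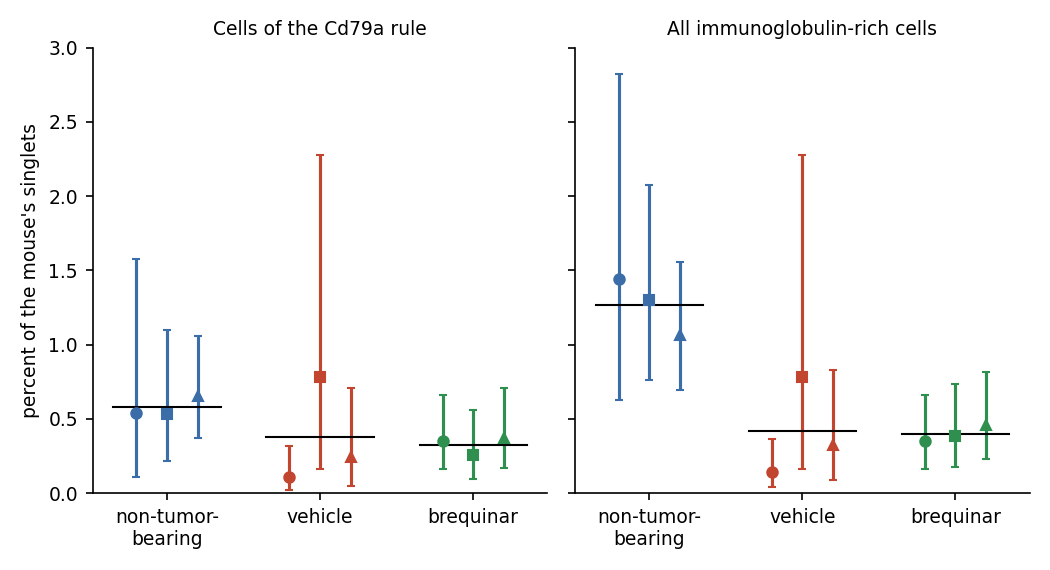
Points are mice, with pools 1, 2 and 3 as circle, square and triangle, vertical bars the exact 95% binomial interval, and horizontal lines the group mean, for the cells of the Cd79a rule and for all immunoglobulin-rich cells as a percent of the mouse's singlets. NTB mice lie above the others on the right side, where their mean is 1.27%, and overlap with vehicle mice on the left.

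Of the immunoglobulin-rich cells with a single hashtag, Igha led in 5, 6 and 2 cells of the NTB mice of pools 1, 2 and 3, in 1 cell of the BRQ mouse of pool 2, and in 0 cells of the other 5 mice. Ighm led in 3, 9 and 23 cells of the NTB mice, 3, 2 and 4 of the vehicle mice and 8, 8 and 11 of the BRQ mice. The rule kept 2 of the 13 Igha cells of NTB mice.

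Within the cells of the rule, expression was compared between groups on the counts summed per mouse. Only 1 mouse had the 10 cells set as a minimum, so the comparison was run on all 9 mice, a choice made after that was seen. In edgeR 0 of 510 genes (0%) were called in each of the 3 comparisons at an adjusted p under 0.05, with 20 genes at an unadjusted p under 0.05 in vehicle against NTB, 28 in BRQ against vehicle and 40 in BRQ against NTB. DESeq2 called 2, 3 and 0. Its calls were Igha, Ighg3 and Spon1. Igha had 953 and 799 UMIs in the NTB mice of pools 2 and 3, 1681 in the BRQ mouse of pool 2, 0 in the other 6 mice. Ighg3 had 597 and 1737 UMIs in the vehicle mice of pools 1 and 2 and at most 20 in the others. In each of these mice 1 cell led by that class held nearly all of the UMIs of Igha or Ighg3. Spon1, an extracellular matrix protein, reached 6, 14 and 26 UMIs in the NTB mice and 8, 8 and 7 in those given vehicle. BRQ mice had 0, 5 and 6, with a DESeq2 log2 difference of BRQ from vehicle of -2.75 (adjusted p = 0.0236) and an edgeR adjusted p of 0.5435.

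Levels of the secretory genes varied between mice of a group. In CPM outside the immunoglobulin loci, Xbp1 stood at 3385, 2637 and 3355 in NTB mice. Vehicle mice had 1426, 3115 and 3737, and BRQ mice 2493, 2445 and 1427, so that vehicle and BRQ overlapped. For Sdc1 the NTB mice stood at 609, 479 and 333, the vehicle mice at 178, 389 and 674, and the BRQ mice at 235, 316 and 198. Mzb1 stood at 1760, 4384 and 2247 in NTB mice, 4456, 3180 and 5637 in vehicle mice and 5504, 4785 and 2473 in BRQ mice. Its log2 difference of BRQ from NTB was 0.59 (edgeR adjusted p = 0.779) and that of Jchain 0.21 (adjusted p = 0.974), both positive and neither called. For Xbp1 and Sdc1 each NTB value lay above each BRQ value. This was lost when the cells with 100 or more UMIs of the 11 neutrophil and granulocyte-monocyte progenitor markers were left out, a setting added after the values were seen. NTB mice then had Xbp1 at 3385, 2637 and 3447 CPM and BRQ mice at 2493, 3063 and 2336, and Sdc1 stood at 609, 479 and 384 against 235, 493 and 353. On all cells of the rule edgeR called neither gene, with log2 differences of BRQ from NTB of -0.59 (adjusted p = 0.779) and -0.84 (adjusted p = 0.658).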

How the data were processed

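Cells were members of a rule on their own counts. Members and gene lists were chosen with earlier results of these data known. The deposited values were raw UMI counts per gene or hashtag and barcode from Cell Ranger 6.0.0 in 3 matrices, and the build mm10 and Seurat are named in the submitters' processing notes. Barcodes with 500 to 7500 detected genes and at most 15% mitochondrial UMIs were kept. Hashtags were called per library with HTODemux (Seurat 5.3.0, quantile 0.99), and Scrublet (scanpy 1.11.5) was used in an alternative. Cells with 2 hashtags, 11 of the 92, stayed in the description of the cells, and comparisons between mice used cells with 1 hashtag.

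Immunoglobulin share is the sum of 12 constant genes and Jchain over all UMIs. Levels are CPM over all UMIs for immunoglobulin genes and over UMIs outside the immunoglobulin loci for others. Cells were thinned to 1000 UMIs with immunoglobulin and Jchain UMIs taken out first, with 5000 other cells drawn, of which 4897 were deep enough. Shares per mouse were compared with exact permutation tests (scipy 1.17.1) and Benjamini-Hochberg adjustment over 3 comparisons. Summed counts were tested with the edgeR 4.0.16 quasi-likelihood test (TMM, filterByExpr), with DESeq2 1.42.0 as an alternative, the former tested on simulated data. Gene positions came from GENCODE M21 (GRCm38), which held 99.6% of the gene identifiers.

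Genes named were those of the lists, the 20 leading genes by the stated rule, and those called in a comparison. V genes and genes of single cells were named after their values were seen. 1 gene of the lists is not reported here. Hashtag files and the readme served for tags and doses only. Each mouse is a separate animal, and p-values measure the spread between 3 animals a group. By the labels a pool was 1 library with 1 mouse of each group, so the pool number pairs the mice as a batch. Deviations of same-pool mice in the share of the cells of the rule correlated at -0.369, 0.694 and -0.925 over 3 pools.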

Additional observations from a re-analysis of the deposited data

How the results depend on the processing

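In the settings run, the share of the cells of the rule stayed lower in BRQ than in NTB mice, with differences from -0.380 with the limits read as UMIs to -0.0765 when cells with Ms4a3, Mpo or Elane UMIs were left out. Both ends rest on few cells. The limits read as UMIs left 22 cells of 13566 barcodes, with 1, 4 and 3 in NTB mice and 1, 0 and 1 in BRQ mice. Without cells with Ms4a3, Mpo or Elane UMIs, NTB mice held 0, 3 and 0 and BRQ mice 0, 0 and 0. Vehicle against NTB was -0.413 with the limits read as UMIs. BRQ against vehicle, -0.0513 points, turned to 0.0328 with the limits read as UMIs and to 0.122 with Cd79a at 1 UMI or more. Vehicle against NTB, -0.198, turned to 0.0378 when cells with Ms4a3, Mpo or Elane UMIs were left out, which kept 6 of 92 cells. For all immunoglobulin-rich cells, BRQ against vehicle turned to 0.107 with tag ratios. The cause of these turns was not tested. With 1 mouse left out at a time, the differences in the share of the cells of the rule ranged from -0.402 to -0.0628 for vehicle against NTB, from -0.187 to 0.152 for BRQ against vehicle and from -0.273 to -0.211 for BRQ against NTB, and those of all immunoglobulin-rich cells from -1.04 to -0.715, from -0.157 to 0.164 and from -0.974 to -0.784. BRQ against vehicle turned without vehicle mouse 2 in both (0.152 and 0.164), and without BRQ mouse 1 in the latter (0.00461).

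For gene calls in vehicle against NTB, BRQ against vehicle and BRQ against NTB, edgeR gave 0 in each, DESeq2 2, 3 and 0, and edgeR without a filter on low counts 34, 28 and 47 of 11253 genes. Leaving out 1 mouse gave 0 to 1 calls in each comparison: Ighg1 without NTB mouse 1, and Ighg3 without vehicle mouse 3. With the pool as a replicate block edgeR called 0 genes in each (19, 26 and 28 at an unadjusted p under 0.05), and the paired differences in share were the same, -0.198, -0.0513 and -0.2497, with exact sign-flip p = 0.5, 1 and 0.25, where 3 pairs cannot go below 0.25. The block changed no call. The tests on mice with 10 cells or more, Ighd after thinning included, were not run because 1 mouse qualified, and edgeR with UMI limits or without cells with myeloid UMIs was not run because a group had under 2 mice with cells. The summed counts of a mouse held 33429 to 192449 UMIs. Over the 6178 genes with 10 or more UMIs in immunoglobulin-rich cells, a base that leaves out list genes at 0 there, 32.3% were higher and 28.3% lower than in other cells in all 3 pools, and 25.1% and 31.4% than in cells with an early gene.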
